A study of Homo sapiens with 48 samples.

Results

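The growth factor receptor tyrosine kinases described here are EGFR, ERBB2, ERBB3, FGFR1, FGFR2, FGFR3, FGFR4, MET, IGF1R and INSR. Their probes were chosen by the gene symbol of the platform annotation, which gave 21 probes for the 10 genes, out of 18849 genes named by a single symbol on the array. All probes of a gene were kept apart, and the level of one probe was not set against that of another. The probes were read on Illumina bead arrays in Huh7, a human hepatoma line, and THP1, a human monocytic leukaemia line. Cells of either line carried the siRNA INTG, directed against a transcript between C5 and TRAF1, or the negative control siRNA NC1 or NC2, so the control cells had also gone through transfection. Each well held 300000 cells and received 50 pmol of siRNA with a lipid reagent, Lipofectamine, and RNA was taken after 2 days. There were 4 experiments per line, each on a culture passage of its own with 2 wells per siRNA, which gave 8 arrays in each of 6 groups and 48 arrays in all.

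A receptor tyrosine kinase binds its ligand outside the cell, pairs with a further receptor and phosphorylates tyrosines on its own tail, where adaptors such as GRB2 and SHC1 dock and pass the signal to the RAS-ERK and PI3K-AKT routes. In liver cells FGFR4, together with the coreceptor KLB, senses the gut hormone FGF19 and restrains bile acid synthesis, MET answers hepatocyte growth factor, ERBB3 signals through partners such as EGFR and ERBB2, and INSR controls glucose and lipid metabolism. CBL proteins, ERRFI1 and SOCS proteins act against these receptors once they are active.

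The siRNA target is shown because it defines the INTG group. Start regions of FGFR4, EGFR and MET are shown because a probe of each passed in Huh7 for INTG against the mean of the controls. For EGFR and MET that did not hold against NC2 alone. Probes of ERBB3 passed as well, but no start region of ERBB3 was read. INTG was designed against 21 bases on chromosome 9. The other sequences are RefSeq windows from 250 bases before to 50 bases after an annotated start, on build GRCh38.p14 and the plus strand. Capitals mark the GC box GGGCGG on either strand, which 45% of the 35116 windows of that length held.

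INTG target: aactacgtgaagaggcctctg

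FGFR4, upstream start, chr5:177086665-177086964: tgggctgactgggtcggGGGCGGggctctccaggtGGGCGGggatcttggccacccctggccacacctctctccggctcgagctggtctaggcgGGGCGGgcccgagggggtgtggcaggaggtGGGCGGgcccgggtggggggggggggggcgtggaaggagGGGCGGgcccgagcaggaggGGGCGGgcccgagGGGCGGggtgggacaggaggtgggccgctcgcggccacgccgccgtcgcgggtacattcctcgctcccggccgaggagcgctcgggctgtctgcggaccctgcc

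FGFR4, downstream start, chr5:177089300-177089599: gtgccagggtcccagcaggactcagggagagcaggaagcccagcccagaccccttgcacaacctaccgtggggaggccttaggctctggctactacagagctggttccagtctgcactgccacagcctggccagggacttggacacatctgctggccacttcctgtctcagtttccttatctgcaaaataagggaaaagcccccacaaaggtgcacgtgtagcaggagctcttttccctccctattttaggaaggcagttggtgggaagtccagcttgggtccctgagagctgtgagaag

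EGFR, upstream start, chr7:55018767-55019066: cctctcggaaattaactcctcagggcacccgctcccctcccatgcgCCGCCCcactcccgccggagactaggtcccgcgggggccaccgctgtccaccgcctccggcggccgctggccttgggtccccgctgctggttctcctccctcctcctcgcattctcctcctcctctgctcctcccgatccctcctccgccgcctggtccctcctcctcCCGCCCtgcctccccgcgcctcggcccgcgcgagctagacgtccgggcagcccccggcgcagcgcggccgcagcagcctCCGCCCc

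MET, chr7:116671946-116672245: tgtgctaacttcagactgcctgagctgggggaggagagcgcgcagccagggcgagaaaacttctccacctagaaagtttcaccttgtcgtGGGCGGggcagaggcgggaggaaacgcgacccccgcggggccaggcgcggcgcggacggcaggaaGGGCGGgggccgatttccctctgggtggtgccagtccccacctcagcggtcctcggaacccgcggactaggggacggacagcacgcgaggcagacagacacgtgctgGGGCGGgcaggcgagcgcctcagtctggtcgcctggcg

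The upstream FGFR4 window held 7 GC boxes with a GC content of 78.7%, against a median of 58.7% over all windows. The downstream FGFR4 window held none and had 57.3% GC. The EGFR window held 3 GC boxes at 75.3% GC and the MET window 3 at 69.3%. None of these 4 windows held the TATA box TATAAA (11.5% of all windows), the CCAAT box (34.6%), the AP-1 motif TGANTCA (7.71%) or the HNF4 motif CAAAGTCCA (0.384%), each searched on both strands. A second EGFR window, chr7:55109589-55109888, is not shown: it held 2 TATA boxes, 2 AP-1 motifs and 0 GC boxes at 42% GC. These matches describe letters only. Of the 10 genes, 8 had a RefSeq entry that was read, with 14 windows.

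Mean scanner signal per array ran from 240.6 to 396.8 in Huh7 and from 122.2 to 478.2 in THP1. All 8 hepatocyte markers read were detected on at least 8 of 24 arrays in Huh7 and 0 in THP1, where 5 of them were detected on no array. All 9 myeloid markers reached 8 arrays in THP1, and CD14, LILRB1 and LYZ did so in Huh7 as well, where the other 6 were detected on no array. Each phase of a line (experiments 1 and 2, discovery, or 3 and 4, validation) filled 1 slide of 12 arrays. Within each experiment the array positions ran from NC1 through NC2 to INTG, so this order and the siRNA cannot be told apart. The positions themselves differed by phase. INTG arrays lay at I to L on the discovery slides and at E, F, K and L on the validation slides. An effect of position was not tested. The INTG arrays of Huh7 were dimmer than the control arrays in experiments 2, 3 and 4, with signal ratios of 0.798, 0.739 and 0.819, and not in experiment 1, with 1.02. The INTG arrays of THP1 were dim in experiment 4, with a ratio of 0.462, after 0.983, 0.986 and 1.06 in the earlier experiments. The level of the INTG target transcript was not checked.

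By the same detection filter, 7 of the 10 receptors were read in Huh7 and 2 in THP1. A probe was called detected on an array where its detection p-value was under 0.01, and it was tested in a line where that held on at least 8 of the 24 arrays. In Huh7 11 of the 21 probes, for EGFR, ERBB2, ERBB3, FGFR3, FGFR4, MET and IGF1R, passed this filter, as did 42.4% of all named probes. In THP1 FGFR1 probe 2 and FGFR3 probe 2 passed it, 2 of 21, against 41.5% of named probes. FGFR4 probe 3 was seen on 7 of the 24 THP1 arrays and ERBB2 probe 3 on 1. FGFR2, INSR and 7 further probes were detected on 0 of the 48 arrays, which gives a bound for those probes and not an absence of the transcript. Annotated transcripts differ between probes of a gene: ERBB3 probes 1 and 3 carry the accession of a short transcript and probe 2 that of the full-length one. Which transcripts a probe reads was not checked against its sequence.

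**Figure D1:**
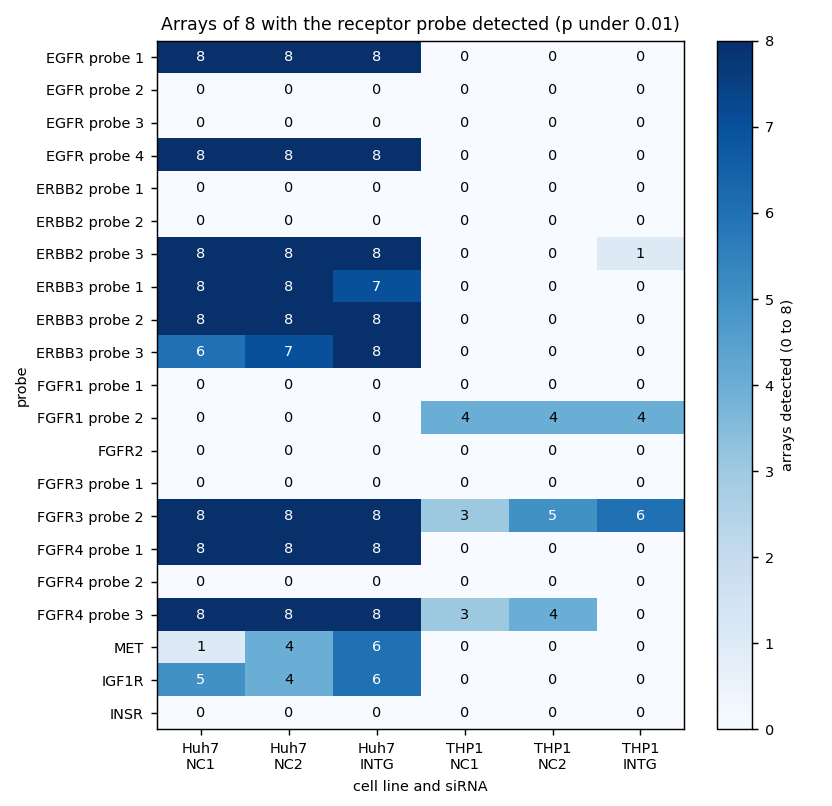
Number of arrays, of 8 in each group, on which each of the 21 receptor probes (rows) was detected, by cell line and siRNA (columns). In Huh7, 7 probes were detected on all 24 arrays, and FGFR1 probe 2 was detected in THP1 and on 0 arrays in Huh7.

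In control cells, 11 of the 12 probes tested in either line were higher in Huh7 and 0 in THP1. Of all 15859 probes tested, 62.6% passed in either direction and 30.7% were higher in Huh7. Of the 11, 10 passed the detection filter through Huh7 alone, the line in which they are high, so the count carries no weight of its own. The values are log2 intensities, and the test was limma over the mean of the control wells of each experiment, with Benjamini-Hochberg adjustment over all probes. FGFR3 probe 2 ran from 12.03 to 12.45 over the 4 Huh7 experiments and from 5.54 to 5.78 over those of THP1. The difference was 6.56 (SE 0.136, adjusted p = 3.68e-10), with the probe detected on 16 of 16 Huh7 control arrays and 8 of 16 in THP1. FGFR4 probe 3 ran from 11.23 to 11.51 in Huh7 and from 5.38 to 5.61 in THP1, a difference of 5.91 (SE 0.117, adjusted p = 2.71e-10), with detection on 16 and 7 of 16 control arrays. The levels of the lines did not overlap for any of the 11 probes, and the share of all probes for which that held was not counted. For FGFR3 probe 2 and FGFR4 probe 3 THP1 lay near background, and the size moved with the treatment of low signals. The differences were 5.24 and 4.53 with no background correction and 7.69 and 7.26 with the authors' values floored at 1.

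Probes that were not well above background on any THP1 control array have only a bound there, taken from the lowest signal of a detected probe on each array. FGFR4 probe 1 was at least 15.5-fold higher in Huh7, with means of 9.61 and 4.66 (adjusted p = 1.8e-09). ERBB2 probe 3 was at least 11.8-fold higher, with means of 9.21 and 5.07. ERBB2 is the member of the EGFR family that has no known ligand and pairs with the others. ERBB3, whose own kinase is weak, was at least 10.9-fold higher by probe 2, 2.03-fold by probe 1 and 1.38-fold by probe 3. EGFR was at least 9-fold higher by probe 4 and at least 2.5-fold by probe 1. These bounds hold for the background-corrected values only. With no background correction the log2 differences were 3.22 for FGFR4 probe 1 and 2.66 for ERBB2 probe 3. They were 2.86 for ERBB3 probe 2 and 2.67 for EGFR probe 4. For these probes that is a smaller fold than the bound given. MET and IGF1R, the receptor for insulin-like growth factors, passed the test (adjusted p = 0.00184 and 0.0121) but lay too near background for a fold. The IGF1R call was lost under median scaling (adjusted p = 0.0511), in validation alone (0.0937) and without experiment 1 (0.0723). FGFR1 probe 2 was the probe that did not pass, with means of 4.72 in Huh7 and 5.63 in THP1 (difference -0.91, SE 0.544, adjusted p = 0.173). On the discovery slides alone it was higher in THP1 (-1.73, adjusted p = 0.000447), and on the validation slides, where it was detected on 0 arrays, the difference was -0.09 (adjusted p = 0.585). Each line was hybridised on slides of its own, so line and slide cannot be told apart.

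In Huh7 both detected FGFR4 probes were lower with INTG than with either control siRNA. Probes of ERBB3, EGFR and MET passed against the mean of the controls, but those of ERBB3 moved in opposite directions. For EGFR and MET no probe passed against NC2 alone. Of the 11 probes tested, 6 passed the threshold of an adjusted p under 0.05 when INTG was compared with the mean of both controls, 3 higher and 3 lower, as did 22.2% of all 13877 probes (10.3% higher and 11.9% lower). The 3 lower were both detected FGFR4 probes and ERBB3 probe 1, and the 3 higher were ERBB3 probe 2, EGFR probe 4 and MET. Against NC1 alone 6 of the 11 passed (18.5% of all probes did) and against NC2 alone 4 (16%). The median difference of all tested probes was 0.01. Scaling the arrays by their medians in place of quantile normalization moved that median to -0.13 and the share of calls that were higher from 46.3% to 9.62%. Under it 4 of the 11 probes passed, 1 higher and 3 lower.

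FGFR4 probe 1 read 9.66, 9.70, 9.47 and 9.66 with NC1 in experiments 1 to 4. With NC2 it read 9.57, 9.80, 9.37 and 9.66. With INTG it read 8.85, 9.06, 8.83 and 8.97. Every INTG experiment lay below all 8 control values, so the groups did not overlap, which held for 3.88% of all probes tested in Huh7. The difference was -0.69 (SE 0.0615, limma with the experiment as block, adjusted p = 3.95e-05), a 1.61-fold lower level, and it was -0.76, -0.69, -0.59 and -0.70 by experiment. A fall of at least this size was seen in 1.66% of the probes tested.

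FGFR4 probe 3, annotated to the same transcript as probe 1, was also lower in every experiment. It read 11.44, 11.50, 11.26 and 11.49 with NC1 and 11.38, 11.51, 11.21 and 11.44 with NC2. With INTG it read 10.81, 10.80, 10.65 and 10.85, again with no overlap. The difference was -0.63 (SE 0.0572, adjusted p = 4.18e-05), 1.54-fold lower. Against NC1 alone it was -0.64 and against NC2 alone -0.61, with adjusted p of 0.000128 and 0.000195. NC2 and NC1 differed by -0.04 (95% interval -0.18 to 0.11) for this probe and by -0.02 (-0.18 to 0.13) for probe 1. In experiment 1, with a signal ratio of INTG to control arrays of 1.02, the differences were -0.76 for probe 1 and -0.60 for probe 3. With array brightness in the fit the differences were -0.72 and -0.62 (adjusted p = 0.00135 and 0.00186). The INTG arrays were dimmer in experiments 2, 3 and 4, and a part of brightness in the difference was not tested. Both probes passed in discovery alone (-0.73 and -0.65) and in validation alone (-0.64 and -0.60). Over the 12 means of Huh7, centred on each experiment, the probes correlated at r = 0.992. The probes share their libraries and the siRNA difference itself.

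**Figure D2:**
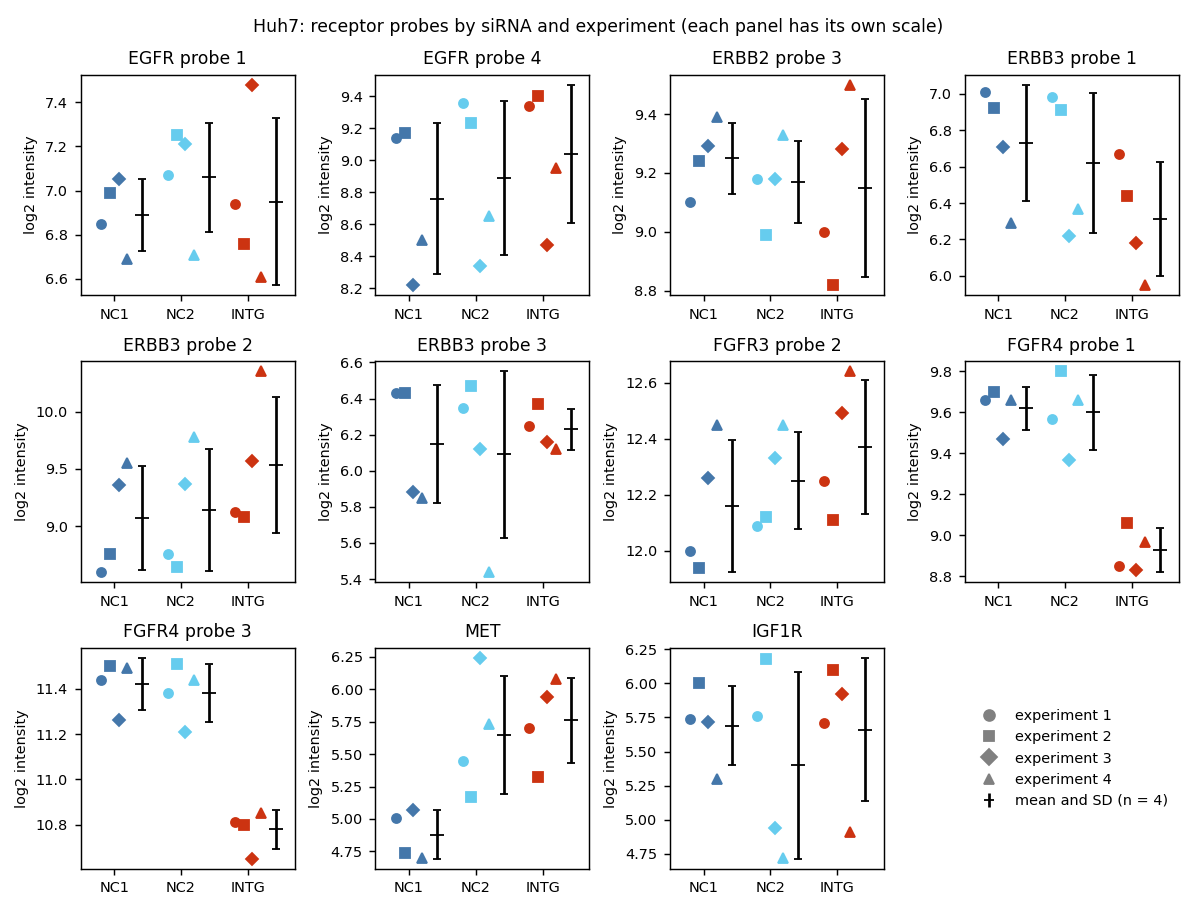
Level on the log2 intensity scale of the 11 receptor probes tested in Huh7, by siRNA, with a point for the mean of the 2 wells of each experiment and a bar for the mean and SD of 4 experiments. FGFR4 probes 1 and 3 are the panels in which every INTG point lies below every control point (8.83 to 9.06 against 9.37 to 9.80 for probe 1).

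The ERBB3 probes moved in opposite directions. Probe 2, on the full-length transcript, read 8.60, 8.76, 9.36 and 9.55 with NC1 and 8.76, 8.64, 9.37 and 9.78 with NC2. With INTG it read 9.12, 9.08, 9.57 and 10.35. INTG was above both controls in each experiment, as for 10.7% of all probes, but the groups overlapped. Levels ran from 8.60 to 9.12 on the discovery slide and from 9.36 to 10.35 on the validation slide. The difference was 0.43 (SE 0.0834, adjusted p = 0.00454), 1.34-fold higher, and it was 0.43, 0.38, 0.21 and 0.69 by experiment.

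ERBB3 probe 1, annotated to the short transcript, read 7.01, 6.92, 6.71 and 6.29 with NC1 and 6.98, 6.91, 6.22 and 6.37 with NC2. With INTG it read 6.67, 6.44, 6.18 and 5.95. INTG was below both controls in each experiment, as it was for both FGFR4 probes and for 12% of all probes. The difference was -0.37 (SE 0.0825, adjusted p = 0.00953), 1.29-fold lower. Probe 3, annotated to the same short transcript, differed by 0.11 (95% interval -0.13 to 0.34, adjusted p = 0.52) and was higher in 2 of 4 experiments. The probes of ERBB3 therefore gave no single direction for the gene. With array brightness in the fit, probes 2 and 1 were at 0.39 and -0.40 and missed the threshold (adjusted p = 0.0686 and 0.0606). Probe 2 was at 0.25 under median scaling (adjusted p = 0.106), and probe 1 at -0.33 without experiment 2 (adjusted p = 0.0606).

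EGFR probe 4, annotated to the full-length transcript, read 9.14, 9.17, 8.22 and 8.50 with NC1, 9.36, 9.23, 8.34 and 8.65 with NC2, and 9.34, 9.40, 8.47 and 8.95 with INTG. Levels differed more between slides than between siRNAs, with 9.14 to 9.40 on the discovery slide and 8.22 to 8.95 on the validation slide. The difference was 0.21 (SE 0.0644, adjusted p = 0.0347), 1.16-fold higher, and INTG was above both controls in 3 of 4 experiments. Against NC1 it was 0.28 (adjusted p = 0.0233) and against NC2 0.15 (adjusted p = 0.215). The call was lost under 11 of 19 alternative settings, leaving out any 1 of the 4 experiments among them (0.16 to 0.25, adjusted p from 0.0688 to 0.187) and median scaling (0.02). EGFR probe 1, annotated to a shorter transcript, differed by -0.03 (95% interval -0.24 to 0.18, adjusted p = 0.84).

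MET, the receptor for hepatocyte growth factor, was lowest with NC1. It read 5.01, 4.74, 5.07 and 4.70 with NC1 and 5.45, 5.17, 6.24 and 5.73 with NC2. With INTG it read 5.70, 5.32, 5.94 and 6.08. NC1 lay below NC2 and below INTG in all 4 experiments, and NC2 and INTG overlapped. INTG exceeded NC1 by 0.88 (SE 0.141, adjusted p = 0.00182) and NC2 by 0.11 (95% interval -0.20 to 0.42, adjusted p = 0.63). Against the mean of the controls the difference was 0.50 (SE 0.122, adjusted p = 0.0146), and 0.38 without experiment 4 (adjusted p = 0.0773).

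Between the control siRNAs, MET was the 1 receptor probe of 11 that passed, against 0.476% of all probes tested. NC2 exceeded NC1 by 0.77 on the log2 scale (SE 0.141, adjusted p = 0.0435), with 0.44, 0.43, 1.17 and 1.03 in experiments 1 to 4. The probe was dim: it was detected on 1 of 8 NC1 arrays, 4 of 8 NC2 arrays and 6 of 8 INTG arrays, so that it passed the filter almost wholly through the groups in which it was higher. Wells of the same experiment and siRNA differed by a median of 0.44 and by up to 0.97. The size depended on how low signals were treated, with 0.35 for NC2 minus NC1 with no background correction and 2.36 with the authors' values floored at 1, and 0.39 and 2.59 for INTG minus NC1. The call was lost when any 1 of the 4 experiments was left out (0.63 to 0.88, adjusted p from 0.137 to 0.211) and with no detection filter (adjusted p = 0.117). In experiment 4 the NC2 arrays were dimmer than those of NC1 (signal ratio 0.739), and with brightness in the fit the NC2 difference was 0.67 (adjusted p = 0.257) and that of INTG from NC1 0.70 (adjusted p = 0.0954), a call also lost without the experiment block (adjusted p = 0.101).

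**Figure D3:**
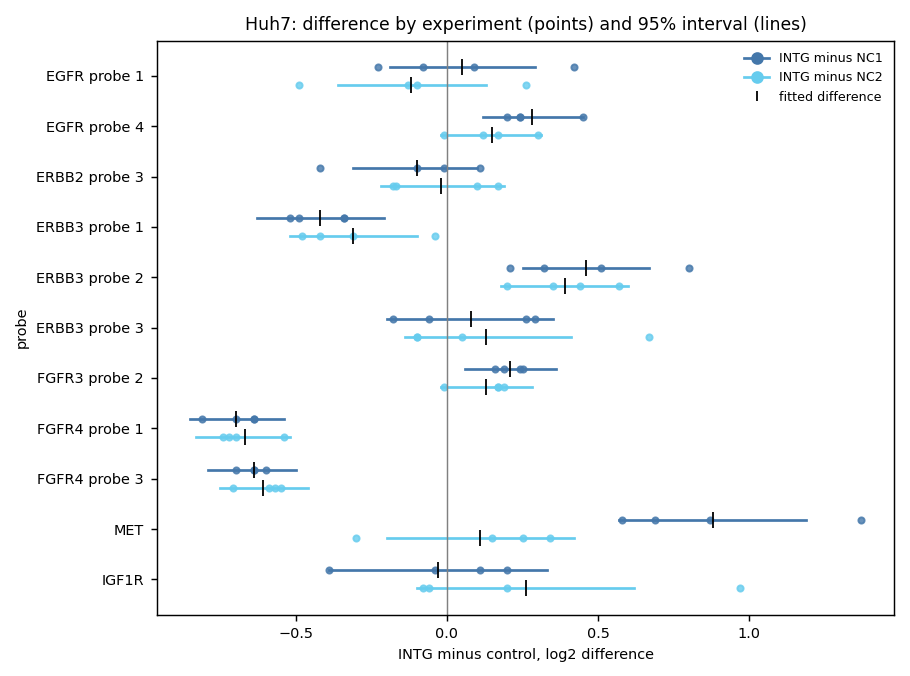
Difference of INTG from NC1 (dark) and from NC2 (light) in Huh7 on the log2 scale for the 11 receptor probes tested, with a point per experiment, a tick at the fitted difference and a line for its 95% interval. FGFR4 gave about the same value against either control (-0.70 and -0.67 for probe 1), whereas MET differed from NC1 (0.88) and not from NC2 (0.11).

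The other receptors of Huh7 did not pass. FGFR3 probe 2 differed by 0.17 (SE 0.0597, adjusted p = 0.0636), with 0.21, 0.07, 0.20 and 0.19 by experiment. ERBB2 probe 3 ran from 8.99 to 9.39 with the controls and from 8.82 to 9.50 with INTG, a difference of -0.06 (95% interval -0.24 to 0.12). IGF1R differed by 0.11 (95% interval -0.20 to 0.43, adjusted p = 0.602), and 0.58 of experiment 3 stood against -0.10 to 0.02 in the others. It was detected on 5, 4 and 6 of 8 arrays with NC1, NC2 and INTG.

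In THP1 neither tested receptor passed, against 0.0444% of 13524 probes. With limma 0 of 2 passed for INTG and 0 of 2 between NC2 and NC1 (0% of all probes), and 0 had an unadjusted p under 0.05 in either. FGFR1 probe 2 separated by slide. It ran from 6.17 to 7.11 over the experiments of the discovery slide and was detected on all 12 of its arrays. On the validation slide it ran from 4.43 to 4.77 and was detected on 0 of 12. INTG differed from the controls by -0.26 on the discovery slide (adjusted p = 0.0803) and by 0.22 on the validation slide (adjusted p = 0.555), a pooled -0.02 (95% interval -0.25 to 0.21, adjusted p = 0.922). FGFR3 probe 2 read 5.44, 5.76, 5.91 and 5.32 with NC1, 5.94, 5.80, 5.25 and 5.75 with NC2, and 5.81, 5.83, 6.11 and 4.62 with INTG. The lowest value came from the dim INTG arrays of experiment 4. The difference was -0.05 (SE 0.24, adjusted p = 0.911). It was the 1 receptor probe tested in both lines, and its INTG effect in Huh7 exceeded that in THP1 by 0.22 (95% interval -0.32 to 0.76, adjusted p = 0.64), where 2.6% of 11542 probes differed between lines. Without the 2 dim INTG wells of experiment 4 the THP1 difference was 0.23 (adjusted p = 0.653) and the difference between lines -0.07 (adjusted p = 0.893), so neither had a stable sign.

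FGFR4 probe 3 was detected on 3 of 8 THP1 arrays with NC1, 4 of 8 with NC2 and 0 of 8 with INTG, too few for the filter. It read 5.39, 5.58, 5.42 and 5.32 with NC1 and 5.56, 5.63, 5.35 and 5.66 with NC2. With INTG it read 5.16, 5.03, 4.86 and 4.89, below every control value, a pattern seen in 0.577% of the probes that were tested in THP1 when either direction counts. No fold can be given, since the control mean of 5.49 lay under the mean floor of 5.88 for a detected probe on the INTG arrays. On these values near background, the limma fit without the filter, over all 48794 probes, gave a log2 difference of -0.51 (SE 0.0717). It did not pass (adjusted p = 0.157), and the mean on the INTG arrays was 4.98. A difference between lines in the INTG effect on FGFR4 was not tested at this filter.

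**Figure D4:**
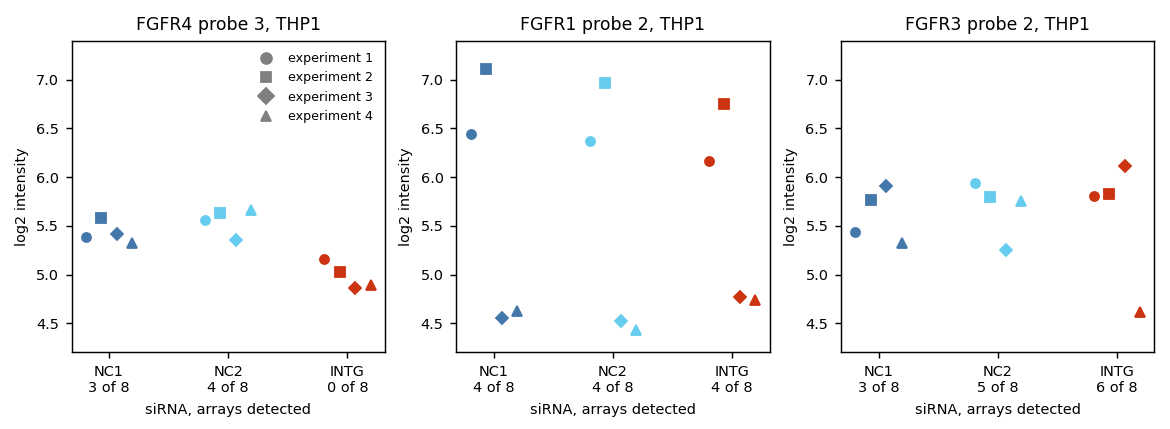
Level on the log2 intensity scale of FGFR4 probe 3, FGFR1 probe 2 and FGFR3 probe 2 in THP1, by siRNA and experiment, with the number of arrays detected under each group. FGFR1 probe 2 separates by slide (6.17 to 7.11 in experiments 1 and 2, 4.43 to 4.77 in 3 and 4), and FGFR4 probe 3 is low throughout.

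Genes that act around the receptors were read from 9 lists of 183 genes, 87 of them tested in Huh7 by their brightest probe. With INTG 20 passed, 9 higher and 11 lower, where 24.2% of the 9342 genes tested passed, 11.2% higher and 13% lower. The share of the lists was thus near that of all genes. Against each control taken alone as well, 12 of the 20 passed, as did 12.4% of all genes. IGFBP4, IGFBP6 and SDC1 missed the threshold against NC1, SOS1, SOCS4, EPHA2 and PDGFRB missed it against NC2, and MAP2K2 missed it against both (adjusted p = 0.0573 and 0.111). Between NC2 and NC1 0 of the 87 passed with limma (9 had an unadjusted p under 0.05), and 0.546% of all genes did. In THP1 0 of 79 passed for INTG (12 unadjusted), against 0.044% of genes, and 0 of 79 between NC2 and NC1 (1 unadjusted).

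Among the ligands, 1 of 7 tested genes passed, where 24.2% of all genes did. HBEGF, a ligand of EGFR, fell by 0.37 in Huh7 (SE 0.0884, adjusted p = 0.0119) and BTC differed by 0.24 (adjusted p = 0.0662). FGF19, the ligand of FGFR4, differed by 0.15 (adjusted p = 0.287), with 0.32, -0.02, 0.42 and -0.11 by experiment. Of the HGF and insulin-like ligands and HGF activators, MST1 differed by -0.20 (adjusted p = 0.0727) and IGF2 by -0.07 (adjusted p = 0.737). Of 4 tested IGF binding proteins, which hold insulin-like growth factors outside the cell, IGFBP3 rose by 0.81 (SE 0.143, adjusted p = 0.00259), and its second probe by 0.68 (adjusted p = 0.0041). IGFBP6 fell by 0.37 (adjusted p = 0.0232) and IGFBP4 fell by 0.23 (adjusted p = 0.0234).

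Coreceptors included the partner of FGFR4. KLB was lower with INTG by 0.47, 0.13, 0.62 and 0.31 in experiments 1 to 4, a fitted -0.38 (SE 0.0779, adjusted p = 0.00576). SDC1, a heparan sulfate proteoglycan that binds growth factors, fell by 0.36 (SE 0.102, adjusted p = 0.0252). The other 7 of the 9 coreceptors and traps tested did not pass, where 24.2% of all genes passed. GPC3 was at -0.04 (adjusted p = 0.764).

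Of 18 adaptors and docking proteins tested, 3 rose and 2 fell, where 24.2% of all genes passed in either direction. PLCG2, a phospholipase recruited to active kinases, fell by 0.84 (SE 0.118, adjusted p = 0.000657). SHC1, which links receptors to GRB2, fell by 0.78 (SE 0.0605, adjusted p = 1.96e-05) and by 0.28 on its second probe (adjusted p = 0.0221), and GRB2 itself was at -0.14 on its counted probe (adjusted p = 0.142) and at -0.23 on the second (adjusted p = 0.0443). IRS2, the docking protein of the insulin receptor, rose by 0.43 (adjusted p = 0.00418). GRB14, an inhibitor of that receptor, rose by 0.28 (adjusted p = 0.0135), with 0.08 on its second probe (adjusted p = 0.686), and SOS1, which loads RAS with GTP, rose by 0.26 (adjusted p = 0.0278).

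Of 11 genes of the RAS-ERK and PI3K-AKT routes tested, 3 fell and 0 rose, where 13% of all genes were lower and 11.2% higher. PDPK1, the kinase that activates AKT, fell by 0.82 (SE 0.068, adjusted p = 2.61e-05) and by 0.56 on its second probe (adjusted p = 0.000264). HRAS fell by 0.48 (adjusted p = 0.00176) and MAP2K2, which activates ERK, fell by 0.22 (adjusted p = 0.0402). AKT1 was at 0.05 (adjusted p = 0.701). The list had a median difference of -0.09 against 0.01 over all probes tested.

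In the list of negative regulators, endocytosis and shedding, 3 of 25 genes tested rose and 0 fell. Of all genes tested, 11.2% were higher and 13% lower. The list median was 0.06. CBLB, a ubiquitin ligase that sends active receptors to degradation, rose by 0.73 (SE 0.0776, adjusted p = 0.000103). ERRFI1, an inhibitor of the EGFR kinase, rose by 0.34 (SE 0.0693, adjusted p = 0.00581), and SOCS4 rose by 0.29 (adjusted p = 0.0181), with -0.08 on its second probe (adjusted p = 0.643). CBL was at 0.06 (adjusted p = 0.747). Of 13 other receptor tyrosine kinases tested, EPHA1 fell by 0.56 (adjusted p = 0.000831), PDGFRB rose by 0.44 (adjusted p = 0.0109) and EPHA2 rose by 0.27 (adjusted p = 0.0347).

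**Figure D5:**
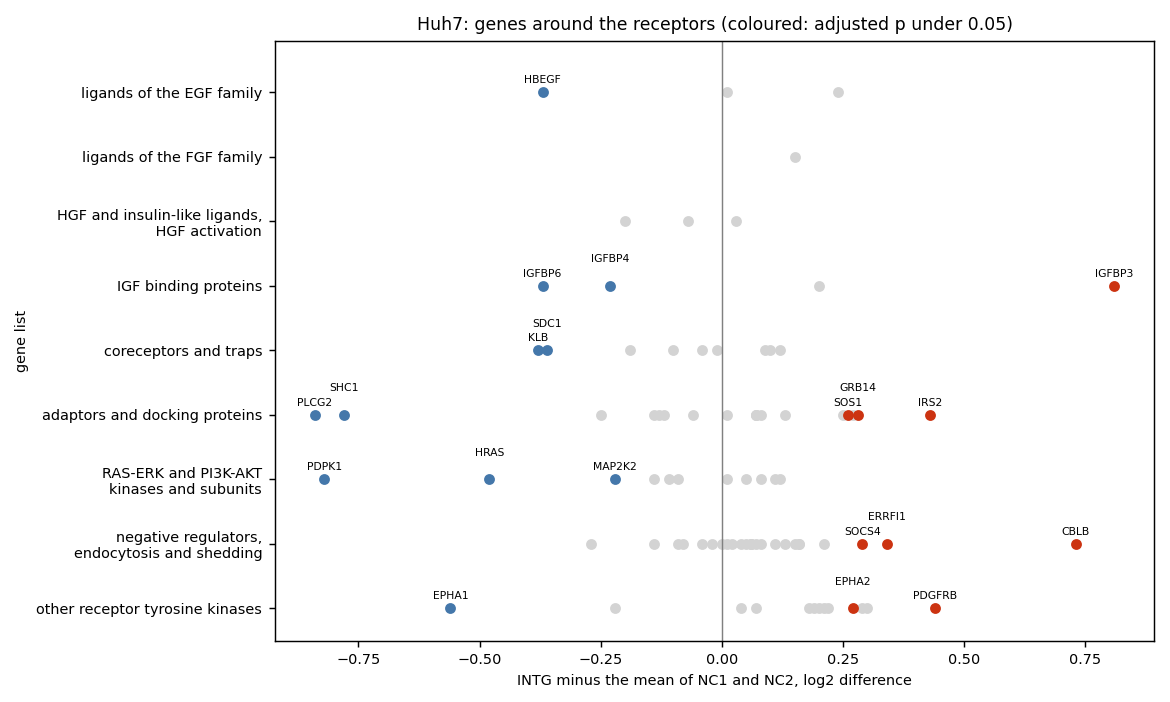
Difference of INTG from the mean of NC1 and NC2 in Huh7 on the log2 scale for the 87 tested genes of 9 lists (rows), with a point per gene, coloured and named where the adjusted p was under 0.05. The 11 lower and 9 higher genes lie on both sides of 0, from -0.84 for PLCG2 to 0.81 for IGFBP3.

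In THP1 none of the 79 tested list genes passed. Those with the highest levels in their lists included AKT1 and MAP2K2 (0.17 and -0.07), CRKL and PLCG2 among the adaptors (0.11 and -0.70, the latter with an adjusted p of 0.0936), IGFBP7 and IGFBP2 (-0.17 and -0.18) and IGF2R and CD44 (-0.09 and -0.01). ST14 and MST1, which belong to the HGF list, were at -0.16 and -0.28. EPN1 and SH3KBP1, of the list of negative regulators, endocytosis and shedding, were at 0.02 and -0.12, and HBEGF was at -0.47 (adjusted p = 0.432). Of the other receptor tyrosine kinases, RET and CSF1R had the highest means, 9.29 and 9.18, with differences of -0.16 and 0.11. PDPK1, SHC1 and HRAS, which fell in Huh7, were at -0.47, -0.44 and -0.07 in THP1 (limma, adjusted p = 0.07, 0.121 and 0.611).

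The genes whose values ran most like those of a receptor were sought among all tested probes with a gene name, by Pearson's r over the 12 Huh7 means centred on each experiment. For FGFR4 probe 1 they were TUBB, NPTX2 and VKORC1 (r from 0.987 to 0.993), and for probe 3 VKORC1, CDK2AP2 and RNF26 (r from 0.993 to 0.996). For ERBB3 probe 2 they were AKAP11, MEX3C and ZNF830 and for probe 1 FOXM1, DBNDD1 and BUD31. For EGFR probe 4 they were EPB41L5, GSTM3 and ZNF277. For MET, whose pattern separates NC1 from the other siRNAs, they were WDR70, INPP1 and GLMP (r from 0.948 to 0.951). These points share the arrays and the siRNA difference, and the coefficients are descriptions of likeness.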

How the data were processed

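Per the file headers, the deposited files give for each probe an intensity (the average signal of its beads) and a detection p-value. A further deposited table, used as an alternative, holds intensity values processed by the authors; how is not stated in the labels. The submitters' processing notes list limma and lumi without versions. The deposited signals were turned into log2 values here by neqc in limma 3.58.1 (R 4.3.3): normexp with detection p-values, offset 16, quantile normalization over 48 arrays. Of 48803 probes, 9 with blank values were left out, and 28098 carried 1 gene symbol. Columns of no sample of the series numbered 0. Wells were averaged, so n is 4 experiments. Each line was fitted with limma (lmFit, eBayes; siRNA and experiment as terms, 6 residual degrees of freedom). Benjamini-Hochberg adjustment ran over all probes tested, with a threshold of 0.05. The experiment is the block because the design text says that wells of an experiment share a passage, and their deviations from group means correlated at 0.753 to 0.888 in Huh7 and 0.458 to 0.918 in THP1.

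The receptors, gene lists, tests and alternatives were chosen with earlier results of these data known. All receptor probes are named. From each list the text names up to 4 genes per direction and line past the threshold, by size, and otherwise up to 2 with the highest level. BTC, GRB2, CBL, GPC3 and AKT1 in Huh7 and PDPK1, SHC1 and HRAS in THP1 were added after their values were seen. For lists, the brightest probe of a gene was used. The fits were tested on simulated data. The number of arrays limits the precision. Wells are replicates within a passage. The p-values of the siRNA contrasts in the main fits measure how the siRNA differences vary between passages of a line. Those of the control level between lines measure the spread of levels between passages.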

Additional observations from a re-analysis of the deposited data

Results flagged for a closer look

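Among 65 sets of receptor values examined for a value far from the rest of its group, 6 held one, where chance gives about 1 in 20. In Huh7 the second INTG well of experiment 3 read 7.87 for EGFR probe 1, against 6.47 to 7.08 in the other INTG wells. The second NC1 well of experiment 1 read 8.96 for ERBB2 probe 3, against 9.23 to 9.47. The second NC2 well of experiment 3 read 6.72 for MET, against 5.13 to 5.84, and without it the NC2 minus NC1 difference was 0.65 (limma, adjusted p = 0.0465), an alternative chosen after seeing the data. The INTG difference of FGFR3 probe 2 was 0.07 in experiment 2 and 0.19 to 0.21 in the others, and that of IGF1R was 0.58 in experiment 3 and -0.10 to 0.02 in the others. In THP1 the second NC2 well of experiment 3 read 4.81 for FGFR3 probe 2, against 5.49 to 6.01.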

How the results depend on the processing

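FGFR4 passed under all 19 alternatives run for it, with differences from -0.86 to -0.60 for probe 1 and -0.84 to -0.60 for probe 3. The count of receptor probes that INTG changed in Huh7 went from 6 to 2 without the replicate block of shared passages, 3 with a block for slide and none for experiment, 2 with array brightness in the fit and 2 in validation alone, where fewer samples enter; the cause of the others was not tested. It was 4 to 5 with 1 experiment left out. ERBB3 probe 2 kept its call in 14 of 19 alternatives, ERBB3 probe 1 in 14 of 18 and MET in 13 of 18. The count for NC2 minus NC1 went from 1 to 0 without the replicate block, with the slide block, with no detection filter, with detection on all 24 arrays (where MET is not tested), with brightness, in each phase alone and with any 1 experiment left out (0 to 0). For MET, NC2 minus NC1 was 0.77 without the replicate block (adjusted p = 1), 0.77 with the slide block (0.254), 0.77 with no filter (0.117), 0.67 with brightness (0.257), 0.43 in discovery (0.557), 1.1 in validation (0.343) and 0.63 to 0.88 with 1 experiment left out. With no filter, 1 receptor probe differed in its INTG effect between lines, and 0 did otherwise: FGFR4 probe 1, which was not detected on any THP1 array. Detection on all 24 arrays left 7 of the 11 control-level calls, since fewer probes were tested. Without the replicate block 2 of the list genes passed, against 20. No result reversed in sign while past the threshold. Wells as separate arrays were not run for the control level.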
